A study of Homo sapiens with 27 samples.

Results

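The integrated stress response and the unfolded protein response were examined as 40 named genes out of 20268 genes in the count table. The genes were taken by symbol, and 20 of them form the ATF4 arm, 4 are grouped as sensors of stress in the endoplasmic reticulum (ER) and 16 form the ER chaperone arm. The group called sensors holds ERN1, EIF2AK3 and ATF6, and also XBP1, whose mRNA the ERN1 product splices and which is not itself a sensor. They were measured by RNA-seq in 27 libraries of 3 human prostate cancer cell lines, LNCaP, LNCaP95 and 22Rv1, in which lentiviral short hairpin RNAs lowered CPSF1, a subunit of the complex that cleaves and polyadenylates pre-mRNA. Each line carried a control hairpin (CTRL sh), CPSF1 sh1 or CPSF1 sh2, with 3 replicates in each of the 9 groups.

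LNCaP is an androgen-dependent line, and LNCaP95 was derived from it by growth without androgen. 22Rv1 comes from a relapsed xenograft. All cells went through puromycin selection, controls included, and RNA was taken 72 h after seeding. LNCaP95 cells were kept in phenol red-free medium and selected at a lower puromycin dose than the others, so that line and culture conditions cannot be told apart. The 3 lines are single models. The paper calls the replicates biological, but the labels give no origin for them beyond a number, so p-values measure the spread between these libraries.

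When unfolded protein builds up in the ER, or amino acids run short, cells phosphorylate the initiation factor eIF2. General translation falls and the transcription factor ATF4 is translated, and ATF4 in turn drives genes for amino acid supply and for stress feedback. Separately, the ER membrane proteins IRE1 and ATF6 respond to unfolded protein by raising XBP1 activity and the chaperones, disulfide isomerases and degradation factors of the ER. ATF4 is regulated mainly at translation, and mRNA levels such as those given here do not read that step.

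The libraries held between 8515624 and 15904518 counts, with a median of 11058723. Levels are CPM, counts divided by the scaled library total, with libraries scaled by TMM normalization within each line. The levels of the marker genes below, from KRT8 to DCN, are instead CPM over the unscaled library total. In LNCaP95 the TMM factors were 0.956 to 0.9692 in controls and 1.011 to 1.0337 with knockdown. The marker ranges of that line are not corrected for this difference. All p-values come from edgeR's quasi-likelihood test with Benjamini-Hochberg adjustment over all genes tested in that comparison. A gene was called at an adjusted p below 0.05, and all 40 members passed the expression filter in every line. CPSF1 mRNA was lower in the knockdown libraries of each line, at 86.17 to 108.3 CPM against 149.7 to 151.7 in LNCaP controls, 57.14 to 68.22 against 97.04 to 127.5 in LNCaP95 and 110.7 to 141.4 against 182 to 188.7 in 22Rv1. The luminal prostate genes KRT8, KRT18, FOLH1 and HOXB13 were at 239 CPM or more in each library, while TP63, KRT5, PTPRC, CD3E and CDH5, which mark basal, immune and endothelial cells, were at 0.379 CPM or less. KRT8 was at 401 to 426 CPM in LNCaP controls and 492 to 602 with knockdown. In LNCaP95 KRT8 was at 759 to 862 and 602 to 709. HOXB13 was at 572 to 601 and 462 to 496 in LNCaP, and 334 to 369 and 430 to 459 in LNCaP95. KRT18 was at 368 to 400 and 335 to 366 in LNCaP95. Controls and knockdown overlapped in the other comparisons of these genes and in all those of FOLH1. The androgen-responsive luminal genes KLK3 and TMPRSS2 were far lower in 22Rv1, at 37.1 to 57.2 and 29.7 to 49.2 CPM, and moved with knockdown. KLK3 was at 1060 to 1140 CPM in controls and 316 to 399 with knockdown in LNCaP, at 1920 to 1960 and 963 to 1170 in LNCaP95 and at 37.1 to 42 and 47.9 to 57.2 in 22Rv1. TMPRSS2 was at 600 to 631 and 406 to 428 in LNCaP, 896 to 950 and 250 to 416 in LNCaP95 and 45.5 to 49.2 and 29.7 to 34.3 in 22Rv1. CD68, a macrophage marker, was at 2.98 to 3.61 CPM in controls and 9.67 to 17.7 with knockdown in LNCaP, 6.25 to 9.05 and 16.7 to 34.7 in LNCaP95 and 0.938 to 1.64 and 1.84 to 6.95 in 22Rv1. The endothelial gene VWF was at 22.3 to 28 and 9.29 to 12.6 CPM in LNCaP but at 0.654 to 1.22 and 1.75 to 4.39 in LNCaP95, and the basal gene KRT14 at 1.26 to 2.1 and 3.75 to 6.25 in LNCaP and 1.59 to 2.9 and 2.44 to 5.8 in LNCaP95. The fibroblast gene COL1A1 was at 21.8 to 26.2 CPM and 13.3 to 16.5 in LNCaP, with overlap between controls and knockdown in the other two lines, and COL3A1 was at 0.0868 to 0.276 CPM in controls and 0.566 to 1.92 with knockdown in LNCaP95, with overlap in LNCaP and 22Rv1. DCN was at 1.37 CPM or less. The part of these genes in the results below was not tested. In cultures of this kind a smaller share of a cell state and less RNA per cell cannot be told apart.

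One library stood apart from its group. A chi-square over all genes was taken for each pair of replicates and divided by its degrees of freedom, so that counting error alone would give 1. Its median was 1.92 over 27 pairs, but 22Rv1 CPSF1 sh1 replicate 3 differed from replicates 1 and 2 by 6.98 and 4.37. LNCaP95 CTRL sh replicates 1 and 2 differed by 5.03. They differed from replicate 3 by 2.79 and 2.88, so these values do not single out either of them. The counts of members that changed without 22Rv1 CPSF1 sh1 replicate 3 or LNCaP95 CTRL sh replicate 1 are given beside them below.

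The ATF4 arm was lower after CPSF1 knockdown in LNCaP95, where all 20 genes fell, from SLC38A2 at -0.28 to PPP1R15A at -2.51 log2. The median log2 fold change over the arm was -0.90 in LNCaP95, beside 0.00 over all genes tested, and 33.7% of all genes tested were called lower. In 22Rv1, 11 of 20 genes were lower and 1 was higher, with a median of -0.31, beside 14.3% of all genes called lower and 12.7% called higher. In LNCaP, 8 of 20 were lower and 3 were higher, with a median of -0.18, and with 31.0% of all genes called lower and 31.1% called higher these counts lie nearer the background. In LNCaP95 no member of the arm was higher, against 33.2% of all genes. Without LNCaP95 CTRL sh replicate 1, 20 of 20 were still lower in LNCaP95, and without 22Rv1 CPSF1 sh1 replicate 3 the 22Rv1 counts were 12 lower and 2 higher.

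**Figure D1:**
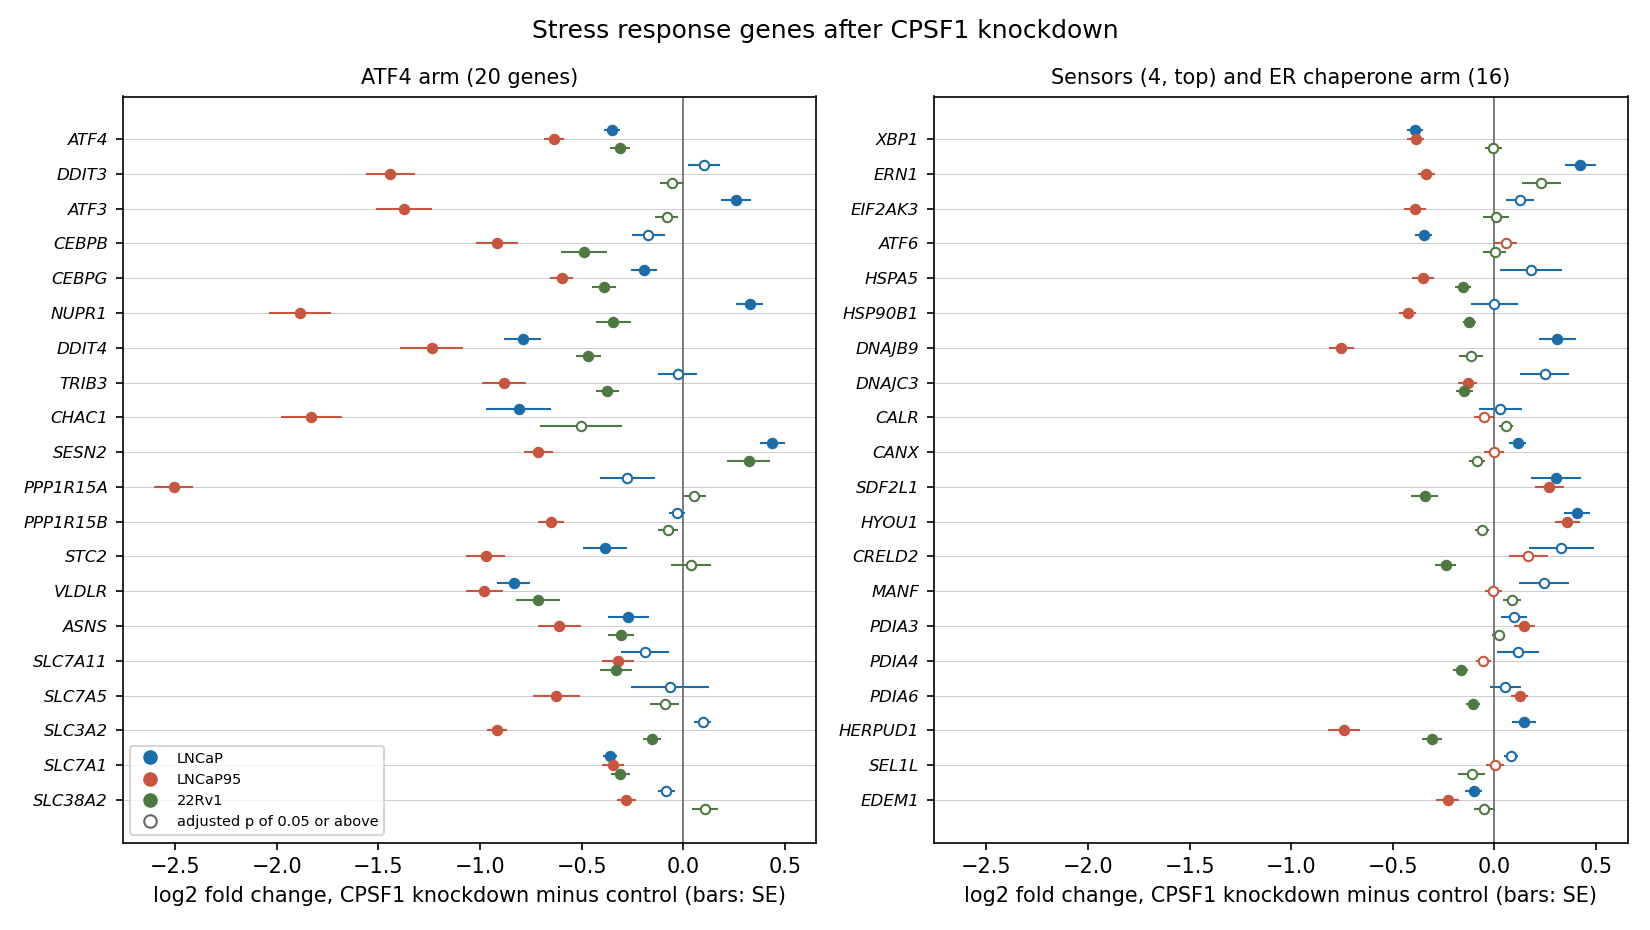
Log2 fold change of each gene after CPSF1 knockdown (6 libraries) against control (3 libraries), with its standard error, in LNCaP (blue), LNCaP95 (red) and 22Rv1 (green). Filled points have an adjusted p below 0.05. The 20 LNCaP95 points of the ATF4 arm lie between -2.51 and -0.28, all left of zero, while the ER chaperone arm spreads to both sides.

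6 genes of the ATF4 arm were called lower in all 3 lines, namely ATF4, CEBPG, DDIT4, VLDLR, ASNS and SLC7A1. None was called higher in all 3. Of the 10317 genes tested in every line, 4.90% were lower and 3.85% higher in all 3. In LNCaP, ASNS and CEBPG were called with CPSF1 sh1 and not with CPSF1 sh2, where they were at -0.08, SE 0.039, adjusted p = 0.0849 and -0.10, SE 0.047, adjusted p = 0.0803. The pooled LNCaP call of ASNS was lost with DESeq2 (adjusted p = 0.0864) and with a replicate block (0.0534). It was also lost without CTRL sh replicate 1 (0.0946) or 3 (0.0945) and without CPSF1 sh1 replicate 1 (0.0515) or 3 (0.0523). That of CEBPG was lost without CTRL sh replicate 2 (0.0501) or 3 (0.0875).

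ATF4 mRNA itself was lower in each line. In LNCaP it was at 467, 455 and 463 CPM in the controls, 353, 339 and 345 with CPSF1 sh1 and 387, 374 and 374 with CPSF1 sh2. The controls and the knockdown libraries did not overlap, and CPSF1 sh1 was the lower of the hairpins (log2 fold change -0.35, SE 0.041, adjusted p = 4.1e-06). In LNCaP95 it was at 618, 624 and 651 CPM in the controls, 421, 428 and 427 with CPSF1 sh1 and 375, 395 and 391 with CPSF1 sh2. The groups did not overlap, and the fall was the steepest of the 3 lines (log2 fold change -0.635, SE 0.049, adjusted p = 4.86e-07). In 22Rv1 it was at 406, 409 and 422 CPM in the controls, 338, 337 and 367 with CPSF1 sh1 and 315, 317 and 318 with CPSF1 sh2. The groups were again apart (log2 fold change -0.31, SE 0.049, adjusted p = 0.000437).

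DDIT3, which encodes the death-promoting factor CHOP, behaved differently between lines. LNCaP95 libraries held it at 329, 311 and 317 CPM in the controls, 136, 143 and 133 with CPSF1 sh1 and 96, 100 and 94.8 with CPSF1 sh2. Both hairpins lay far below the controls, CPSF1 sh2 below CPSF1 sh1, and the pooled level was 2.72-fold lower (log2 fold change -1.44, SE 0.12, adjusted p = 8.57e-07). LNCaP libraries held it at 37, 37.2 and 37.3 CPM in the controls, 42.4, 44.1 and 44.6 with CPSF1 sh1 and 37.5, 36.1 and 35.6 with CPSF1 sh2. CPSF1 sh1 lay above the controls and CPSF1 sh2 overlapped them, and the pooled difference did not pass (log2 fold change 0.10, SE 0.078, adjusted p = 0.265). 22Rv1 libraries held it at 61.1, 55.6 and 59.5 CPM in the controls, 60.2, 54.7 and 60.1 with CPSF1 sh1 and 55.8, 53.3 and 54.6 with CPSF1 sh2. The 3 groups overlapped (log2 fold change -0.06, SE 0.058, adjusted p = 0.491).

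CEBPG, a bZIP partner of ATF4, was at 171, 185 and 175 CPM in the controls, 121, 126 and 123 with CPSF1 sh1 and 111, 109 and 110 with CPSF1 sh2 in LNCaP95 (log2 fold change -0.60, SE 0.057, adjusted p = 2.23e-06). Its 22Rv1 values were 143, 145 and 150 CPM in the controls, 120, 121 and 114 with CPSF1 sh1 and 101, 100 and 113 with CPSF1 sh2 (log2 fold change -0.39, SE 0.061, adjusted p = 0.000437). The groups were apart in both lines. In LNCaP, at 111, 115 and 120 CPM in the controls, 88.1, 91.7 and 100 with CPSF1 sh1 and 107, 105 and 112 with CPSF1 sh2, the knockdown libraries overlapped the controls (log2 fold change -0.19, SE 0.065, adjusted p = 0.0171). CEBPB, a related bZIP factor, was among the largest falls in 22Rv1, at 26.8, 24.6 and 23.6 CPM in the controls, 18.7, 21.8 and 19.1 with CPSF1 sh1 and 13.6, 18.1 and 15.9 with CPSF1 sh2 (log2 fold change -0.49, SE 0.11, adjusted p = 0.00587). It also fell in LNCaP95 (log2 fold change -0.92, SE 0.10, adjusted p = 7.29e-06).

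NUPR1, a small stress-induced nuclear protein, moved in opposite directions. Its LNCaP95 values were 779, 741 and 760 CPM in the controls, 251, 256 and 246 with CPSF1 sh1 and 150, 172 and 157 with CPSF1 sh2. The controls stood well above both hairpins, and the pooled level was 3.69-fold lower (log2 fold change -1.885, SE 0.15, adjusted p = 7.44e-07). Its LNCaP values were 141, 136 and 133 CPM in the controls, 161, 159 and 155 with CPSF1 sh1 and 195, 189 and 169 with CPSF1 sh2. All 6 knockdown libraries were above the controls (log2 fold change 0.33, SE 0.067, adjusted p = 0.000648). In 22Rv1 the 6 knockdown libraries lay at 97.7 to 139 CPM, below controls at 140 to 143 (log2 fold change -0.34, SE 0.086, adjusted p = 0.0092). ATF3, an ATF4-induced transcriptional repressor, likewise fell in LNCaP95 (log2 fold change -1.375, SE 0.14, adjusted p = 3.27e-06) and rose in LNCaP (log2 fold change 0.26, SE 0.073, adjusted p = 0.00627), with a value of -0.08, SE 0.059, adjusted p = 0.324 in 22Rv1.

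Among the feedback and output genes, PPP1R15A had the largest fall of all 40 members. It encodes GADD34, which brings a phosphatase to eIF2 and ends the response. In LNCaP95 it was at 58.4, 53.3 and 67 CPM in the controls, 10.7, 12.5 and 10.2 with CPSF1 sh1 and 9.67, 8.81 and 10.5 with CPSF1 sh2. The highest knockdown library was at 12.5 CPM and the lowest control at 53.3, and the pooled level was 5.69-fold lower (log2 fold change -2.51, SE 0.096, adjusted p = 3.12e-09). In LNCaP it was at 8.86 to 9.21 CPM in the controls and 5.48 to 9.35 with knockdown (log2 fold change -0.28, SE 0.14, adjusted p = 0.0896). In 22Rv1, with controls at 37.3 to 38.4 CPM, the value was 0.05, SE 0.057, adjusted p = 0.518. PPP1R15B, its constitutive counterpart, fell in LNCaP95 (log2 fold change -0.65, SE 0.065, adjusted p = 3.31e-06) and had values of -0.03 in LNCaP and -0.07 in 22Rv1 that did not pass.

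DDIT4, an inhibitor of mTORC1 that hypoxia also induces, was lower in all 3 lines. In LNCaP it was at 330, 297 and 250 CPM in the controls, 153, 148 and 158 with CPSF1 sh1 and 199, 167 and 188 with CPSF1 sh2. The groups did not overlap (log2 fold change -0.79, SE 0.090, adjusted p = 2.91e-06). LNCaP95 libraries held it at 383, 308 and 365 CPM in the controls, 180, 186 and 174 with CPSF1 sh1 and 112, 126 and 113 with CPSF1 sh2 (log2 fold change -1.24, SE 0.16, adjusted p = 1.96e-05). Its 22Rv1 values were 62, 56.2 and 56.3 CPM in the controls, 40.8, 41.1 and 46.6 with CPSF1 sh1 and 40, 40.9 and 43.4 with CPSF1 sh2 (log2 fold change -0.47, SE 0.061, adjusted p = 0.000131). The controls were above the knockdown libraries in each line. VLDLR, a lipoprotein receptor, was at 31.4, 31.7 and 29.1 CPM in the controls, 14.4, 18.6 and 15.5 with CPSF1 sh1 and 17.4, 18 and 18.9 with CPSF1 sh2 in LNCaP. It had the largest fall of the arm there (log2 fold change -0.835, SE 0.082, adjusted p = 6.68e-07) and in 22Rv1 (log2 fold change -0.72, SE 0.11, adjusted p = 0.000379), where it was at 16.6, 13.7 and 12.3 CPM in the controls, 8.85, 9.5 and 9.16 with CPSF1 sh1 and 8.14, 7.73 and 8.69 with CPSF1 sh2. Its LNCaP95 values were 70.2, 63.3 and 63.7 CPM in the controls, 34.5, 39.5 and 36.4 with CPSF1 sh1 and 31.8, 29.1 and 28.4 with CPSF1 sh2 (log2 fold change -0.98, SE 0.092, adjusted p = 2.14e-06).

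CHAC1, an enzyme that degrades glutathione, was at 27.3, 27.6 and 24.6 CPM in the controls, 14.6, 10.5 and 11.3 with CPSF1 sh1 and 21.9, 16.7 and 15.1 with CPSF1 sh2 in LNCaP. Its knockdown libraries were all below the controls (log2 fold change -0.81, SE 0.16, adjusted p = 0.00047), CPSF1 sh1 the lower. In LNCaP95 it fell further, by 3.56-fold (log2 fold change -1.83, SE 0.15, adjusted p = 6.96e-07). In 22Rv1 it was at only 5.04 to 7.41 CPM in the controls and the difference did not pass (log2 fold change -0.50, SE 0.20, adjusted p = 0.0805). TRIB3, a pseudokinase that restrains ATF4, fell in LNCaP95 (log2 fold change -0.88, SE 0.11, adjusted p = 1.46e-05) and 22Rv1 (log2 fold change -0.37, SE 0.058, adjusted p = 0.000451), with a value of -0.03, SE 0.095, adjusted p = 0.815 in LNCaP. STC2, a secreted glycoprotein, fell in LNCaP95 (log2 fold change -0.97, SE 0.097, adjusted p = 3.16e-06) and LNCaP (log2 fold change -0.38, SE 0.11, adjusted p = 0.00626), with 0.04, SE 0.099, adjusted p = 0.811 in 22Rv1.

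SESN2, a leucine sensor that limits mTORC1, was called higher in LNCaP, as were ATF3 and NUPR1, and was the 1 gene of the arm called higher in 22Rv1. LNCaP libraries held it at 60.2, 54.7 and 58.1 CPM in the controls, 77.9, 73 and 72.6 with CPSF1 sh1 and 84.1, 85.3 and 75 with CPSF1 sh2. All 6 knockdown libraries were above the controls (log2 fold change 0.44, SE 0.061, adjusted p = 1.88e-05). In 22Rv1 the groups overlapped (log2 fold change 0.32, SE 0.11, adjusted p = 0.0387), and the call was lost with a replicate block (adjusted p = 0.0648), with CPSF1 sh1 alone (0.272), without CTRL sh replicate 2 (0.17) or 3 (0.125) and without CPSF1 sh2 replicate 1, 2 or 3 (0.0715, 0.0704 and 0.068). In LNCaP95 it fell with the other members, from 186 to 204 CPM in the controls to 106 to 135 with knockdown (log2 fold change -0.71, SE 0.071, adjusted p = 3.16e-06).

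The amino acid supply genes held the smallest falls of the arm in LNCaP95, with a median of -0.48, against -0.975 for the feedback and output genes and -1.15 for the transcription factors. ASNS, which makes asparagine, was at 337, 353 and 354 CPM in the controls, 261, 260 and 262 with CPSF1 sh1 and 198, 198 and 186 with CPSF1 sh2 in LNCaP95. CPSF1 sh2 lay lowest (log2 fold change -0.61, SE 0.11, adjusted p = 0.000297). Its LNCaP values were 258, 240 and 257 CPM in the controls, 183, 173 and 177 with CPSF1 sh1 and 250, 233 and 233 with CPSF1 sh2. CPSF1 sh2 overlapped the controls there and CPSF1 sh1 did not (log2 fold change -0.27, SE 0.10, adjusted p = 0.0302). In 22Rv1 it was at 260, 254 and 266 CPM in the controls, 223, 223 and 232 with CPSF1 sh1 and 194, 190 and 198 with CPSF1 sh2, with the groups apart (log2 fold change -0.31, SE 0.062, adjusted p = 0.00258).

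SLC7A1, the carrier of cationic amino acids, had nearly the same fall in each line. It was at 267, 266 and 266 CPM in the controls, 201, 205 and 197 with CPSF1 sh1 and 210, 213 and 218 with CPSF1 sh2 in LNCaP (log2 fold change -0.36, SE 0.035, adjusted p = 6.72e-07). It was at 418, 407 and 415 CPM in the controls, 345, 352 and 340 with CPSF1 sh1 and 299, 305 and 312 with CPSF1 sh2 in LNCaP95 (log2 fold change -0.35, SE 0.056, adjusted p = 0.000142) and at 267, 255 and 260 CPM in the controls, 220, 207 and 189 with CPSF1 sh1 and 220, 214 and 211 with CPSF1 sh2 in 22Rv1 (log2 fold change -0.31, SE 0.049, adjusted p = 0.000455). Controls and knockdown libraries did not overlap in any line. SLC3A2, the heavy chain shared by several amino acid carriers, fell in LNCaP95 (log2 fold change -0.92, SE 0.049, adjusted p = 3.06e-08) and 22Rv1 (log2 fold change -0.15, SE 0.045, adjusted p = 0.0226), with 0.095, SE 0.042, adjusted p = 0.059 in LNCaP. SLC7A11, the cystine carrier, fell in LNCaP95 (-0.32) and 22Rv1 (-0.33), and its pooled -0.19 in LNCaP did not pass. The LNCaP hairpins were apart, at 168 to 185 CPM with CPSF1 sh1 and 244 to 262 with CPSF1 sh2, beside controls at 235 to 253. With CPSF1 sh1 it was lower than the controls (log2 fold change -0.47, SE 0.042, adjusted p = 8.23e-09). SLC7A5, which carries large neutral amino acids, and SLC38A2, which carries small neutral ones, fell in LNCaP95 (-0.62 and -0.28), and their pooled values in LNCaP and 22Rv1 ran from -0.09 to 0.11 without passing. By hairpin in 22Rv1, SLC7A5 was at 264 to 273 CPM in the controls, 222 to 242 with CPSF1 sh1 and 263 to 281 with CPSF1 sh2. SLC38A2 was at 764 to 812, 728 to 811 and 904 to 922 CPM in the same order.

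**Figure D2:**
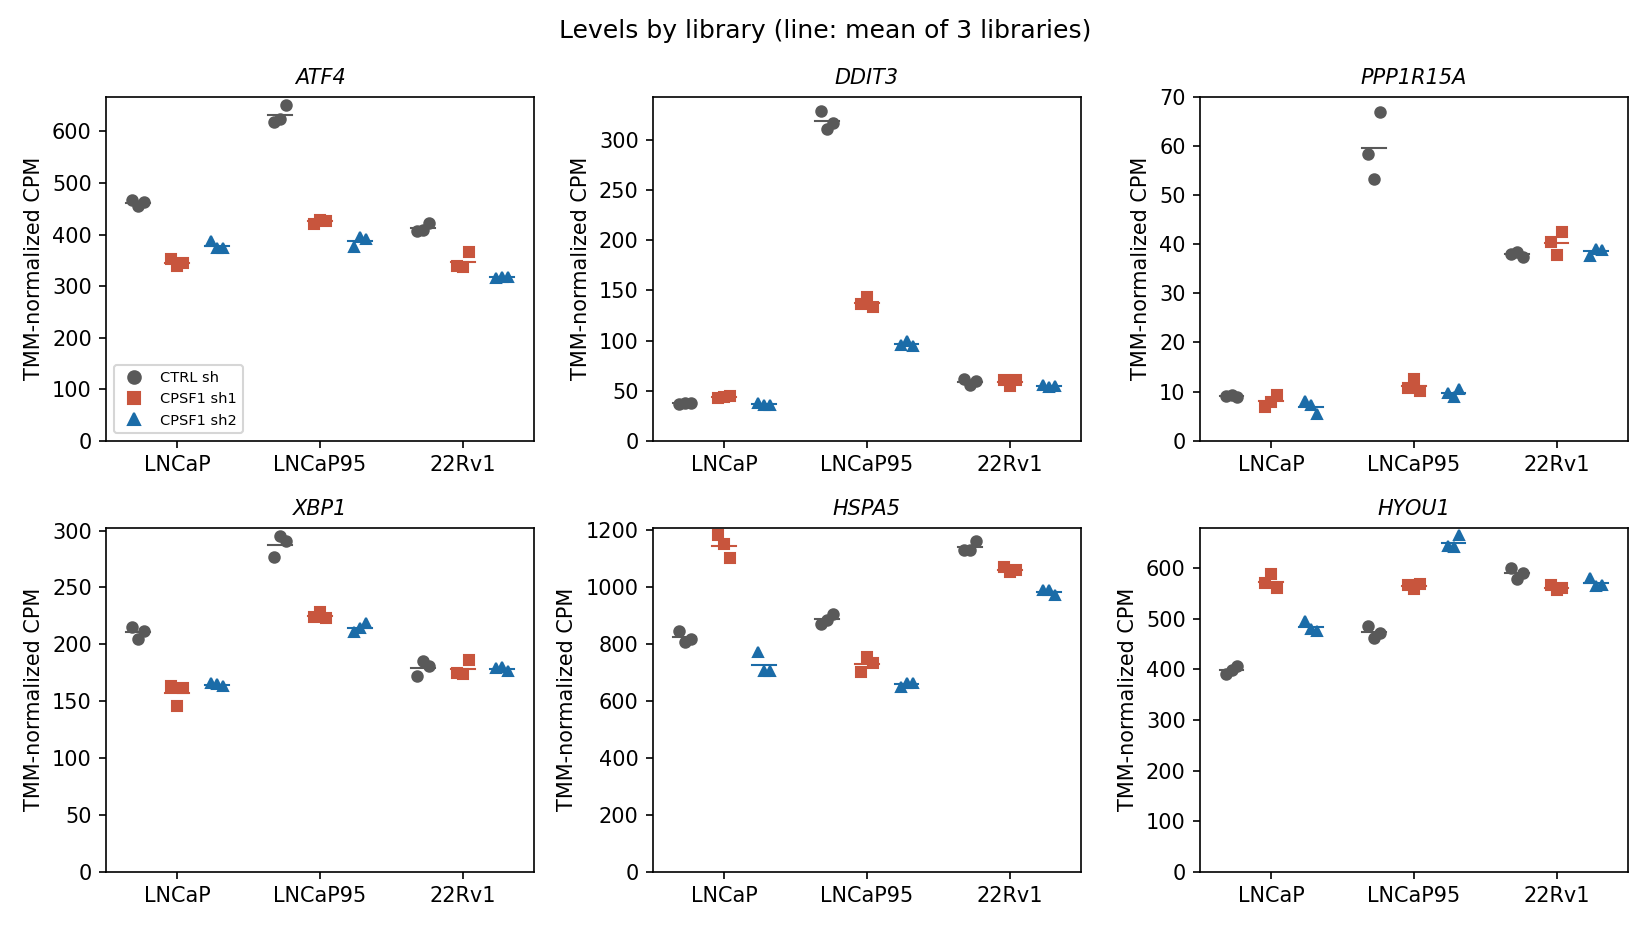
TMM-normalized CPM of 6 genes in each of the 27 libraries, with circles for CTRL sh, squares for CPSF1 sh1, triangles for CPSF1 sh2 and a line at the mean of 3 libraries, each cell line scaled on its own. DDIT3 and PPP1R15A are high in the LNCaP95 controls and drop in both hairpins, and HSPA5 in LNCaP is at 1100 to 1180 CPM with CPSF1 sh1 and at 703 to 771 with CPSF1 sh2, on either side of its controls.

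The binding site of ATF4 with C/EBP partners, the CARE, was searched in RefSeq promoters of GRCh38.p14, which run from 250 bases before to 50 after the annotated start. These coordinates differ from the GRCh37 build of the count table. Of the 40 members, 37 had an entry, and NUPR1, SLC7A11 and PDIA3 had none. The core TGATGNAA on either strand was in 7 of 18 promoters of the ATF4 arm (38.9%), in 0 of 4 of the sensors and in 1 of 15 of the ER chaperone arm (6.67%), against 4.46% of the 27305 genes with an entry. The 7 sites are shown because this motif is the one that joins the arm to its transcription factor, with the core in capitals, or its reverse complement where the match is on the other strand, read 5′ to 3′ on the gene's strand.
ATF3 (GRCh38.p14, chr1:212565205-212565234, plus strand, first base of the motif at -191): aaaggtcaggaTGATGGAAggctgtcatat
CEBPG (GRCh38.p14, chr19:33374060-33374089, plus strand, first base of the motif at -42): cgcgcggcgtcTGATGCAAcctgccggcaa
CHAC1 (GRCh38.p14, chr15:40953251-40953280, plus strand, first base of the motif at -209): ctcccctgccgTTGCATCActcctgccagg
PPP1R15B (GRCh38.p14, chr1:204412026-204412055, minus strand, first base of the motif at -227): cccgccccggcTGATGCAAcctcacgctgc
ASNS (GRCh38.p14, chr7:97872458-97872487, minus strand, first base of the motif at -68): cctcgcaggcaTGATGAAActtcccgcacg
SLC3A2 (GRCh38.p14, chr11:62881725-62881748, plus strand, first base of the motif at 37): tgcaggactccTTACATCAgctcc
SLC7A1 (GRCh38.p14, chr13:29595663-29595692, minus strand, first base of the motif at 7): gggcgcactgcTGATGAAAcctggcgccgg
Of the 6 genes lower in all 3 lines, ASNS, CEBPG and SLC7A1 held the core, and ATF4, DDIT4 and VLDLR held no match in this window. A match is a description of the sequence and not a measured site, and sites outside the window were not searched.

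The hairpins were next compared for the ATF4 arm, and both contrasts in a line share its control libraries. In LNCaP95, 20 of 20 genes were lower with CPSF1 sh1 and 20 of 20 with CPSF1 sh2, beside 33.3% and 36.9% of all genes, and none was higher, beside 33.1% and 36.5%. CPSF1 sh2 was lower than CPSF1 sh1 for 16 of 20 genes and higher for 0, while 17.7% of all genes were lower and 16.5% higher. The largest of these differences were in NUPR1 (-0.65, SE 0.046, adjusted p = 3.34e-09), CHAC1 (-0.63, SE 0.093, adjusted p = 4.02e-05) and DDIT4 (-0.62, SE 0.065, adjusted p = 6.29e-07). The median over the arm was -0.73 with CPSF1 sh1 and -0.98 with CPSF1 sh2. CPSF1 was at 57.14 to 68.22 CPM with CPSF1 sh1 and 58.81 to 63.89 CPM with CPSF1 sh2. The count that differed between hairpins was 17 of 20 without LNCaP95 CTRL sh replicate 1.

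In LNCaP the order was the other way round. With CPSF1 sh1, 11 of 20 genes were lower and 4 higher, beside 31.3% and 31.2% of all genes. With CPSF1 sh2, 7 were lower and 5 higher, beside 32.5% and 32.1%. CPSF1 sh2 was higher than CPSF1 sh1 for 9 genes and lower for 2, DDIT3 and ATF3, while 6.53% of all genes were higher and 8.24% lower. CHAC1 (0.57, SE 0.13, adjusted p = 0.00624), SLC7A11 (0.505, SE 0.042, adjusted p = 1.07e-07) and STC2 (0.44, SE 0.053, adjusted p = 1.28e-05) differed most. TRIB3 was called in opposite directions by the hairpins against control, at -0.24 with CPSF1 sh1 and 0.15 with CPSF1 sh2.

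In 22Rv1, CPSF1 sh1 lowered 11 of 20 genes and raised 0, beside 11.1% and 8.79% of all genes, and CPSF1 sh2 lowered 12 and raised 2, beside 20.9% and 19.1%. Between the hairpins 3 genes were higher with CPSF1 sh2 (SESN2, SLC7A5 and SLC38A2) and 4 lower (ATF4, NUPR1, CHAC1 and ASNS), beside 5.47% and 5.85%. Without CPSF1 sh1 replicate 3, 12 genes were called with CPSF1 sh1, 14 with CPSF1 sh2 and 10 between them.

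The 4 genes grouped as sensors moved by 0.42 log2 or less in the pooled comparisons. XBP1 encodes the factor whose mRNA IRE1 splices, and these counts do not separate its spliced form. In LNCaP it was at 215, 205 and 212 CPM in the controls, 163, 146 and 162 with CPSF1 sh1 and 166, 165 and 163 with CPSF1 sh2 (log2 fold change -0.39, SE 0.042, adjusted p = 1.46e-06). In LNCaP95 it was at 277, 295 and 291 CPM in the controls, 224, 228 and 223 with CPSF1 sh1 and 211, 214 and 219 with CPSF1 sh2 (log2 fold change -0.39, SE 0.041, adjusted p = 5.17e-06). Controls were above all knockdown libraries in both lines, with near equal falls. 22Rv1 libraries held it at 172, 185 and 181 CPM in the controls, 175, 174 and 186 with CPSF1 sh1 and 179, 180 and 177 with CPSF1 sh2, and the groups overlapped (log2 fold change -0.005, SE 0.041, adjusted p = 0.939).

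ERN1, which encodes IRE1, rose in LNCaP, at 48.1, 52.1 and 56.7 CPM in the controls, 61.7, 64.8 and 70.1 with CPSF1 sh1 and 68, 73.9 and 80.8 with CPSF1 sh2 (log2 fold change 0.42, SE 0.077, adjusted p = 0.000247). It fell in LNCaP95 (log2 fold change -0.335, SE 0.043, adjusted p = 2.28e-05), and its 0.23 in 22Rv1 did not pass (adjusted p = 0.0935). EIF2AK3, which encodes the eIF2 kinase PERK, fell in LNCaP95, at 63.2, 69.7 and 66.5 CPM in the controls, 53.7, 50.3 and 46.3 with CPSF1 sh1 and 51.3, 52 and 50.2 with CPSF1 sh2 (log2 fold change -0.39, SE 0.056, adjusted p = 5.74e-05). All 6 knockdown libraries were below its controls. ATF6 fell in LNCaP, at 104, 104 and 110 CPM in the controls, 79.6, 88 and 82.7 with CPSF1 sh1 and 80.9, 86.7 and 82.4 with CPSF1 sh2 (log2 fold change -0.35, SE 0.042, adjusted p = 5.65e-06), again with all 6 knockdown libraries below the controls. It had 0.055, SE 0.056, adjusted p = 0.399 in LNCaP95. None of the 4 sensors was called in 22Rv1 in the pooled comparison. By hairpin, 3 further calls were made. ERN1 was higher with CPSF1 sh2 in 22Rv1 (0.31, SE 0.098, adjusted p = 0.0179), ATF6 was higher with CPSF1 sh1 in LNCaP95 (0.11, SE 0.049, adjusted p = 0.0473) and EIF2AK3 was higher with CPSF1 sh1 in LNCaP (0.22, SE 0.059, adjusted p = 0.00301). EIF2AK3 was also the 1 sensor called between the hairpins, lower with CPSF1 sh2 in LNCaP (-0.18, SE 0.058, adjusted p = 0.0375).

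The ER chaperone arm had no single direction over the 3 lines. LNCaP had 5 of 16 genes higher and 1 lower (median 0.13), LNCaP95 had 4 higher and 6 lower (median -0.03), and 22Rv1 had 8 lower and none higher (median -0.11). The shares of all genes called are those given above for the same comparisons, and 31.1% higher in LNCaP is close to 5 of 16. In 22Rv1, 8 of 16 lower stands beside 14.3%. The LNCaP count of 5 ranged from 2 to 8 when a single library was left out. The 22Rv1 count was 8 without CPSF1 sh1 replicate 3 and 5 without CTRL sh replicate 3. The LNCaP95 count of 4 higher ranged from 2 to 4 in the same way, at 3 without CTRL sh replicate 1 and 2 without CTRL sh replicate 3 or CPSF1 sh2 replicate 2. No gene of the arm was called in the same direction in all 3 lines. Of all genes tested in every line, 4.90% were lower and 3.85% higher in all 3, so this count lies near the background.

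HSPA5 encodes BiP, the main ER chaperone and the one that holds the sensors inactive. LNCaP libraries held it at 843, 807 and 816 CPM in the controls, 1180, 1150 and 1100 with CPSF1 sh1 and 771, 703 and 703 with CPSF1 sh2. The controls lay between the hairpins, with CPSF1 sh1 above (0.47, SE 0.039, adjusted p = 2.62e-09) and CPSF1 sh2 below (-0.18, SE 0.040, adjusted p = 0.00049), and the pooled difference did not pass (log2 fold change 0.18, SE 0.15, adjusted p = 0.318). LNCaP95 libraries held it at 868, 884 and 904 CPM in the controls, 701, 755 and 733 with CPSF1 sh1 and 647, 663 and 663 with CPSF1 sh2, with all knockdown libraries below the controls (log2 fold change -0.35, SE 0.053, adjusted p = 7.85e-05). Its 22Rv1 values were 1130, 1130 and 1160 CPM in the controls, 1070, 1050 and 1060 with CPSF1 sh1 and 989, 989 and 971 with CPSF1 sh2. These also did not overlap, and the fall was small (log2 fold change -0.16, SE 0.039, adjusted p = 0.00883).

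HSP90B1, the ER member of the HSP90 family, fell in LNCaP95 (log2 fold change -0.43, SE 0.041, adjusted p = 2.25e-06) and 22Rv1 (log2 fold change -0.12, SE 0.032, adjusted p = 0.0107). HYOU1, the nucleotide exchange factor for BiP, rose in LNCaP, at 391, 398 and 406 CPM in the controls, 570, 588 and 561 with CPSF1 sh1 and 495, 480 and 476 with CPSF1 sh2 (log2 fold change 0.41, SE 0.065, adjusted p = 7.25e-05). It rose in LNCaP95 too, at 486, 462 and 472 CPM in the controls, 566, 559 and 568 with CPSF1 sh1 and 644, 641 and 666 with CPSF1 sh2 (log2 fold change 0.36, SE 0.063, adjusted p = 0.000271). Controls and knockdown libraries did not overlap in either line, and in 22Rv1 the value was -0.06, SE 0.033, adjusted p = 0.183.

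DNAJB9, a BiP cochaperone that keeps IRE1 in check, rose in LNCaP, at 21.5, 20.9 and 21.8 CPM in the controls, 27.6, 28.9 and 29.3 with CPSF1 sh1 and 23.8, 22.3 and 28 with CPSF1 sh2 (log2 fold change 0.31, SE 0.090, adjusted p = 0.00774). Its LNCaP95 values were 62.7, 67.2 and 61.6 CPM in the controls, 40, 41.6 and 35.9 with CPSF1 sh1 and 37.8, 36 and 35.5 with CPSF1 sh2. That was the largest fall of the arm in any line (log2 fold change -0.75, SE 0.063, adjusted p = 8.62e-07). DNAJC3, a cochaperone and inhibitor of PERK, fell in LNCaP95 (-0.13, adjusted p = 0.0197) and 22Rv1 (-0.15, adjusted p = 0.0218).

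SDF2L1, a BiP partner in a large ER chaperone complex, was at 27, 26 and 27 CPM in the controls, 35.3, 29.4 and 30.8 with CPSF1 sh1 and 31.5, 31.6 and 34.1 with CPSF1 sh2 in LNCaP95, where all knockdown libraries were higher (log2 fold change 0.27, SE 0.070, adjusted p = 0.0044). It was higher in LNCaP with overlap (log2 fold change 0.30, SE 0.12, adjusted p = 0.0422), with 0.07, SE 0.071, adjusted p = 0.39 for CPSF1 sh2. In 22Rv1 it was at 63.5, 64.7 and 66.2 CPM in the controls, 50, 54.2 and 58.3 with CPSF1 sh1 and 49, 48.7 and 46.1 with CPSF1 sh2, the largest fall of the arm in that line (log2 fold change -0.34, SE 0.067, adjusted p = 0.00207). HERPUD1, a membrane protein of ER-associated degradation, was at 209, 214 and 228 CPM in the controls, 139, 150 and 135 with CPSF1 sh1 and 113, 124 and 118 with CPSF1 sh2 in LNCaP95 (log2 fold change -0.74, SE 0.077, adjusted p = 4.61e-06). It was at 183, 171 and 176 CPM in the controls, 151, 140 and 149 with CPSF1 sh1 and 146, 138 and 132 with CPSF1 sh2 in 22Rv1 (log2 fold change -0.31, SE 0.048, adjusted p = 0.000455). Both lines had all knockdown libraries below the controls, and in LNCaP it was slightly higher with overlap (log2 fold change 0.145, SE 0.060, adjusted p = 0.0492), with 0.035, SE 0.037, adjusted p = 0.424 for CPSF1 sh2.

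The other chaperones moved by 0.33 log2 or less in the pooled comparisons. The lectin chaperone CANX rose in LNCaP with overlap (0.115, adjusted p = 0.0281), with 0.05, SE 0.032, adjusted p = 0.179 for CPSF1 sh2. Its partner CALR was called in no pooled comparison, but in LNCaP it was higher with CPSF1 sh1 (0.23) and lower with CPSF1 sh2 (-0.20). CRELD2, a secreted ER protein, fell in 22Rv1 (-0.24), and the ER factor MANF was called in no pooled comparison. Of the disulfide isomerases, PDIA3 (0.15) and PDIA6 (0.12) rose in LNCaP95, and PDIA4 (-0.17) and PDIA6 (-0.105) fell in 22Rv1. The calls of PDIA3 and PDIA6 were lost without some single libraries. Of the degradation genes, EDEM1, a lectin that directs glycoproteins to disposal, fell in LNCaP (-0.10) and LNCaP95 (-0.23). SEL1L, an adaptor of the HRD1 ubiquitin ligase, was called in no pooled comparison. The LNCaP groups of EDEM1 overlapped (adjusted p = 0.0482), and it did not pass with CPSF1 sh1 (-0.07, adjusted p = 0.175). EDEM1 was the 1 gene of the arm called lower in LNCaP, a count that became 0 with DESeq2 and without some single libraries.

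In LNCaP the hairpins differed for 13 of 16 genes of this arm. CPSF1 sh1 raised 15 of 16 genes and lowered 0, beside the 31.2% and 31.3% given above, with a median of 0.285. CPSF1 sh2 raised 2 (HYOU1 and DNAJB9) and lowered 6 (HSPA5, HSP90B1, CALR, PDIA4, PDIA6 and EDEM1), beside 32.1% and 32.5%, with a median of -0.015. All 13 genes that differed in the direct comparison were lower with CPSF1 sh2 than with CPSF1 sh1, beside 8.24% and 6.53% of all genes, and the median difference was -0.37. The difference was -0.65, SE 0.039, adjusted p = 1.04e-09 for HSPA5, -0.645, SE 0.063, adjusted p = 8.95e-07 for CRELD2 and -0.51, SE 0.040, adjusted p = 5.75e-08 for MANF.

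CRELD2 shows the pattern library by library, at 39.8, 40 and 35.6 CPM in the controls, 60.3, 58.2 and 60.3 with CPSF1 sh1 and 41.3, 37.5 and 35.6 with CPSF1 sh2. MANF was at 132, 133 and 132 CPM in the controls, 188, 180 and 186 with CPSF1 sh1 and 135, 122 and 132 with CPSF1 sh2 and DNAJC3 at 78.8, 79.9 and 78 CPM in the controls, 109, 106 and 115 with CPSF1 sh1 and 78.4, 78.4 and 78.5 with CPSF1 sh2. In these 3 genes CPSF1 sh1 lay above the controls in every library and CPSF1 sh2 lay on or about them. The 3 genes outside the 13, DNAJB9, SEL1L and EDEM1, had differences of -0.22, -0.075 and -0.06 that did not pass. CPSF1 was at 94.35 to 108.3 CPM with CPSF1 sh1 and 86.17 to 98.23 CPM with CPSF1 sh2.

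**Figure D3:**
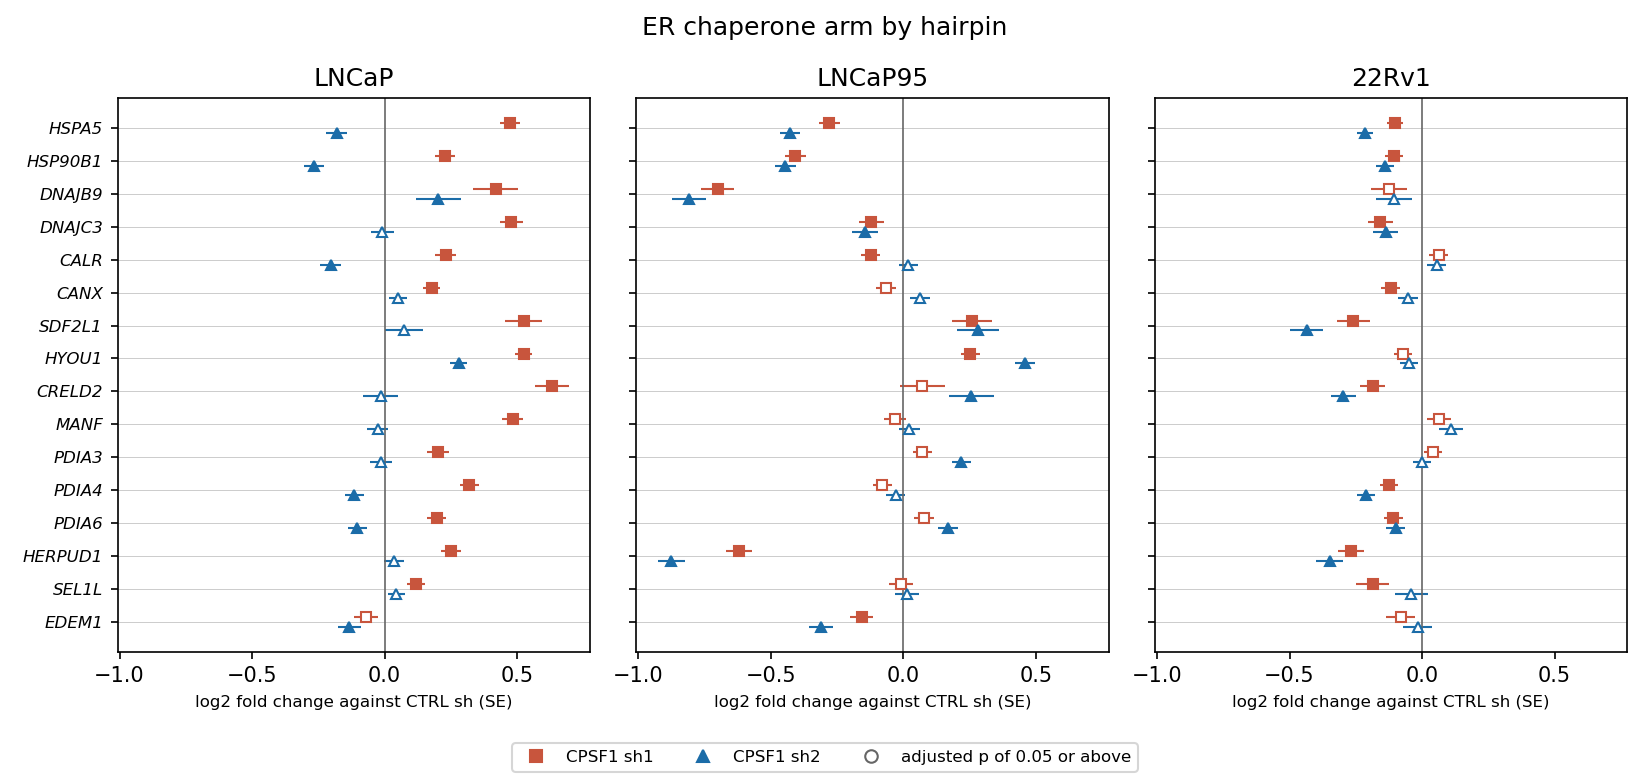
Log2 fold change of the 16 genes of the ER chaperone arm with CPSF1 sh1 (squares) and CPSF1 sh2 (triangles) against CTRL sh, with standard errors, in each line. Filled symbols have an adjusted p below 0.05. In LNCaP 15 genes lie above zero with CPSF1 sh1 and the CPSF1 sh2 symbols sit to their left. In LNCaP95 the hairpins differ for 7 genes, by -0.26 to 0.205, and in 22Rv1 for HSPA5.

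In LNCaP95, CPSF1 sh1 raised 2 of 16 genes of the arm and lowered 7, beside 33.1% and 33.3% of all genes, and CPSF1 sh2 raised 5 and lowered 6, beside 36.5% and 36.9%. Between them 4 were higher with CPSF1 sh2 (HYOU1, PDIA3, CALR and CANX) and 3 lower (HERPUD1, EDEM1 and HSPA5), beside 16.5% and 17.7%. These counts lie near the shares over all genes or below them, apart from 4 of 16 higher and 7 of 16 lower. Without LNCaP95 CTRL sh replicate 1, 9 genes in place of 7 differed between the hairpins. In 22Rv1, CPSF1 sh1 lowered 10, beside 11.1% of all genes, and CPSF1 sh2 lowered 8, beside 20.9%. Neither raised any, beside 8.79% and 19.1%, and HSPA5 was the 1 gene called between them (-0.11, SE 0.031, adjusted p = 0.0312), beside 5.85% of all genes lower. Without 22Rv1 CPSF1 sh1 replicate 3 these 3 counts were 9, 9 and 1. The count for CPSF1 sh1 ranged from 3 to 9 when a single library was left out, and the count between hairpins from 0 to 3. DESeq2 gave 5 in place of the 10 with CPSF1 sh1 and 0 in place of the 1 between hairpins.

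The promoters of this arm were searched for the ER stress element (ERSE), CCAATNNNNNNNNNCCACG, bound by NF-Y and ATF6, on either strand. It was in 6 of 15 promoters of the arm (40%), in 1 of 4 of the sensors and in 0 of 18 of the ATF4 arm, against 0.0916% of the 27305 genes. The matches, in 6 chaperone genes and XBP1, are shown because the element is the one known from ER chaperone promoters, with the element in capitals, in either orientation.
XBP1 (GRCh38.p14, chr22:28800598-28800626, minus strand, first base of the motif at -52): gctggCCAATCGCGGAGGGCCACGaccgt
HSPA5 (GRCh38.p14, chr9:125241386-125241414, minus strand, first base of the motif at -66): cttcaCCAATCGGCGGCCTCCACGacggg
HSP90B1 (GRCh38.p14, chr12:103930211-103930239, plus strand, first base of the motif at -194): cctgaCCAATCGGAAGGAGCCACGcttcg
HSP90B1 (GRCh38.p14, chr12:103930316-103930344, plus strand, first base of the motif at -89): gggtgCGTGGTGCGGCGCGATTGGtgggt
CALR (GRCh38.p14, chr19:12938379-12938407, plus strand, first base of the motif at -225): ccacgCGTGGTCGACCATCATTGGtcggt
CANX (GRCh38.p14, chr5:179698773-179698801, plus strand, first base of the motif at -151): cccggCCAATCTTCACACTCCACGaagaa
CRELD2 (GRCh38.p14, chr22:49918549-49918577, plus strand, first base of the motif at -80): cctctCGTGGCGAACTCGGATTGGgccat
PDIA6 (GRCh38.p14, chr2:10812848-10812876, minus strand, first base of the motif at -86): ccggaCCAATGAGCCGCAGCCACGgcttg
The XBP1 motif core TGACGTGG was in 1 of 15 promoters, that of HYOU1, against 0.927% of all genes, and the CARE match of the arm was in HERPUD1.
HYOU1 (GRCh38.p14, chr11:119057375-119057404, minus strand, first base of the motif at -188): cgctggccccgTGACGTGGtccaatcccag
HERPUD1 (GRCh38.p14, chr16:56931955-56931984, plus strand, first base of the motif at -176): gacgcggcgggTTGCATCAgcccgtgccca
With CPSF1 sh1 in LNCaP each of the 6 chaperone genes with an ERSE rose, as did 8 of the other 9 genes with a promoter entry. With CPSF1 sh2, HSPA5, HSP90B1, CALR and PDIA6 of the 6 fell, and CANX and CRELD2 were at 0.05 and -0.015 without passing, while of the other 9 PDIA4 and EDEM1 fell and HYOU1 and DNAJB9 rose.

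Whether the knockdown effect differed between lines was tested as an interaction over all 27 libraries. Between LNCaP95 and LNCaP it differed for 15 of 20 genes of the ATF4 arm, each lower in LNCaP95, and for 5 of 16 of the ER chaperone arm, beside 50.9% of all genes. The 5 became 9 when each hairpin was its own group. Between 22Rv1 and LNCaP it differed for 3 of the ATF4 arm and 8 of the chaperone arm, beside 40.4%, and the 3 became 10 with hairpins as groups. Between 22Rv1 and LNCaP95 it differed for 15 of the ATF4 arm, with a difference above 0 for each, and for 8 of the chaperone arm, beside 53.7%. This last 8 became 5 with a replicate block and ranged from 5 to 8 when a single library was left out. Without LNCaP95 CTRL sh replicate 1 both counts of 15 were 14 and the last 8 was 7, and without 22Rv1 CPSF1 sh1 replicate 3 the first 15 was 16 and the 8 between 22Rv1 and LNCaP was 9. The largest differences between LNCaP95 and LNCaP were in PPP1R15A (-2.21, SE 0.15, adjusted p = 9.42e-13), NUPR1 (-2.19, SE 0.18, adjusted p = 5.58e-11), ATF3 (-1.62, SE 0.16, adjusted p = 1.12e-09) and DDIT3 (-1.525, SE 0.15, adjusted p = 1.21e-09). VLDLR, ASNS, SLC7A11, SLC7A1 and SLC38A2 did not pass, with differences from -0.32 to 0.03. Across the 20 genes of the arm, Pearson's r and Spearman's rho between pooled fold changes were 0.63 and 0.45 for LNCaP and 22Rv1, 0.05 and -0.03 for LNCaP and LNCaP95 and 0.02 and 0.10 for LNCaP95 and 22Rv1, as a description, since genes are not independent.

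The control libraries differed between lines before any knockdown. In LNCaP95 controls, 17 of 20 genes of the ATF4 arm were higher than in LNCaP controls and 0 lower, beside 38.8% and 37.2% of all genes, with a median difference of 1.04 log2. DDIT3 was highest among them (3.08, SE 0.12, adjusted p = 1.78e-19), followed by PPP1R15A (2.70, SE 0.11, adjusted p = 4.17e-19), NUPR1 (2.45, SE 0.15, adjusted p = 6.09e-15) and ATF3 (2.12, SE 0.13, adjusted p = 3.32e-15). DDIT4, SLC7A11 and SLC7A5 did not pass. The chaperone arm had 8 genes higher and 4 lower in the same comparison, DNAJB9 the highest (1.55, SE 0.081, adjusted p = 9.95e-17).

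The same comparison was then made among the knockdown libraries, a choice made after the control levels had been seen. With CPSF1 knockdown, 14 of 20 genes of the ATF4 arm were higher in LNCaP95 than in LNCaP and 2 lower, beside 42.5% and 37.7% of all genes, and the median difference was 0.30 log2. For PPP1R15A the difference was 0.485, SE 0.097, adjusted p = 3.99e-05, for NUPR1 0.26, SE 0.10, adjusted p = 0.0244 and for DDIT3 1.555, SE 0.086, adjusted p = 2.26e-16. These differences, those among controls and the knockdown effects share libraries and are given side by side. The 2 genes lower in LNCaP95 with knockdown were SLC7A5 (-0.52) and SLC7A11 (-0.31).

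**Figure D4:**
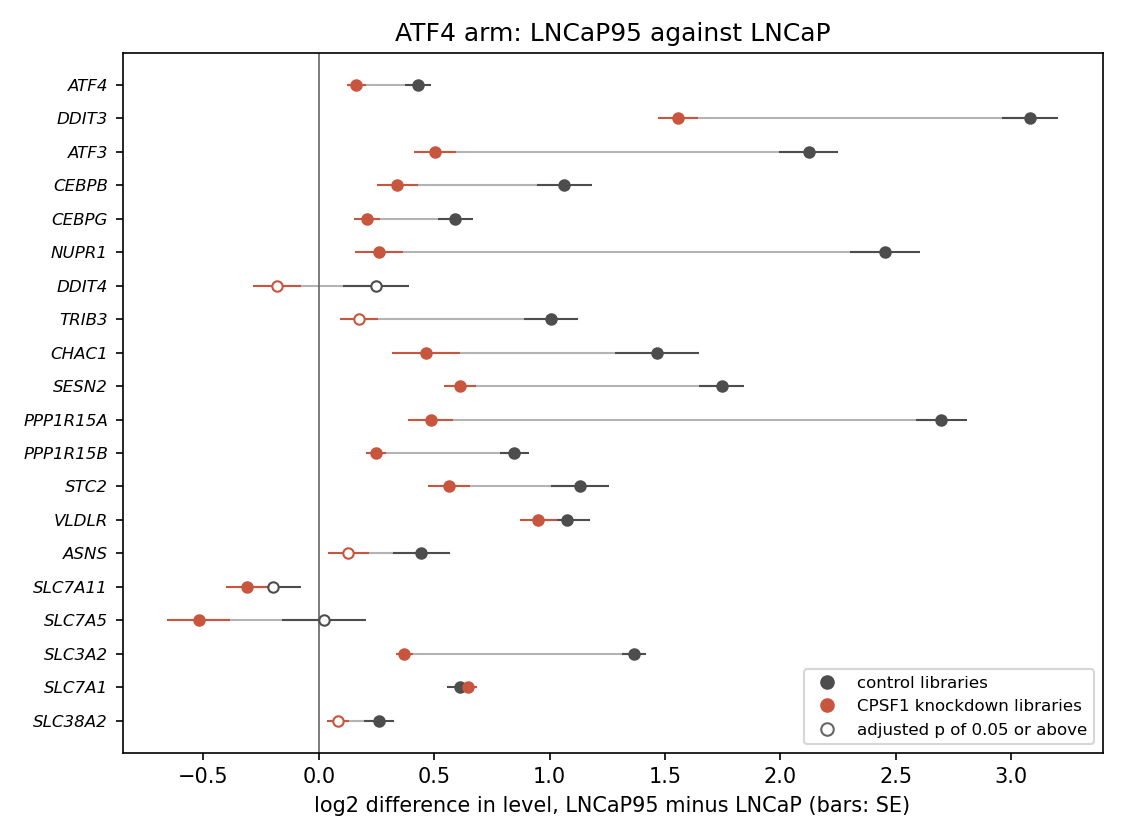
Log2 difference in level between LNCaP95 and LNCaP for the 20 genes of the ATF4 arm, with standard errors, among control libraries (grey) and CPSF1 knockdown libraries (red). Filled points have an adjusted p below 0.05. PPP1R15A moves from 2.70 to 0.485 and NUPR1 from 2.45 to 0.26.

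In 22Rv1 controls against LNCaP controls, 5 genes of the ATF4 arm were higher and 9 lower, near the 39.2% and 39.5% of all genes or below, with a median of -0.12. In the chaperone arm 12 of 16 were higher and 1 lower, with a median of 0.54. CRELD2 was the highest of these (2.33, SE 0.14, adjusted p = 1.52e-15), and all 4 sensors were lower, ERN1 the lowest (-1.36, SE 0.095, adjusted p = 7.09e-14). Against LNCaP95 controls, 18 of 20 genes of the ATF4 arm were lower and 2 higher (SLC7A5 and SLC38A2), beside 40.7% in each direction, and 11 of 16 chaperone genes were higher and 4 lower.

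Levels per length of exon (RPKM, scaled over all 27 libraries) placed the members on 1 scale. Among controls the highest were CALR at 473 ± 13.2 (SD, n = 3) in LNCaP, NUPR1 at 700.2 ± 18.6 in LNCaP95 and HSP90B1 at 549 ± 20.6 in 22Rv1, the last followed closely by CALR at 537 ± 11.8. NUPR1 was 7th in LNCaP, at 128 ± 3.71 RPKM, and 9th in 22Rv1, at 133 ± 1.65. DDIT3 was at 32.4 ± 0.125 RPKM in LNCaP, 274 ± 8.70 in LNCaP95 and 51.1 ± 2.52 in 22Rv1. The lowest members were PPP1R15A in LNCaP (2.99 ± 0.0568), SLC7A5 in LNCaP95 (4.72 ± 0.679) and VLDLR in 22Rv1 (1.56 ± 0.248).

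Other genes of the same pathways, listed beyond the 40 members, were counted in the pooled comparisons. Of the amino acid and eIF2 branch, which holds further ATF4 targets for serine, glycine and tRNA charging, LNCaP had 15 of 23 tested genes lower and 2 higher, LNCaP95 had 17 of 24 lower and 5 higher, and 22Rv1 had 16 of 24 lower and 1 higher, beside 31.0%, 33.7% and 14.3% of all genes lower. 10 of them were lower in all 3 lines, beside 4.90% of all genes tested in each. SLC1A5, a glutamine carrier, was at -0.70 in LNCaP, -0.95 in LNCaP95 and -0.48 in 22Rv1. PHGDH, the first enzyme of serine synthesis, was at -0.57, -0.33 and -0.38 in the same order, and PCK2, a mitochondrial enzyme of phosphoenolpyruvate synthesis, at -0.81, -0.40 and -0.50. CTH, which makes cysteine, was at -0.57, -1.39 and -0.63. PSAT1, SHMT2, EIF4EBP1, GPT2, MARS and AARS completed the 10, with falls of -0.13 to -0.81. Others of the list rose. ATF5, a bZIP factor of the ATF4 family, rose in LNCaP (0.66) and LNCaP95 (0.51), as did WARS, a tRNA synthetase gene (0.45 and 0.23), and PSPH, SLC1A4 and SLC6A9 rose in LNCaP95 by 0.29 to 0.46. GDF15, a secreted stress cytokine, fell in LNCaP (-0.76) and LNCaP95 (-1.35) and rose in 22Rv1 (0.82).

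In the other lists the directions were mixed, and many counts lie near the shares of all genes called, which were 31.1%, 33.2% and 12.7% higher and 31.0%, 33.7% and 14.3% lower in LNCaP, LNCaP95 and 22Rv1. ERO1L, the ER oxidase that recharges the disulfide isomerases, was lower in all 3 lines, at -0.89, -1.78 and -0.65, among 12 genes of ER folding of which 3, 5 and 4 were lower and 5, 4 and 1 higher in LNCaP, LNCaP95 and 22Rv1. Of 20 genes of translocation and degradation, 6, 9 and 3 were higher and 4, 6 and 4 lower, with DERL1 and SEC61A1 higher and ERLEC1 and SEC24D lower in each line. Of 6 ER stress transducers, 2, 1 and 2 were higher and 3, 5 and 1 lower, and the ATF6 proteases split, MBTPS1 being higher and MBTPS2 lower in each line. Of 9 genes of eIF2, its kinases and its exchange factor, EIF2S1 (0.49, 0.385 and 0.145) and EIF2B5 were higher and the kinase gene EIF2AK1 was lower in each, and the list held 3, 5 and 2 genes higher and 3, 2 and 1 lower.

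Of 9 cytosolic heat shock genes, LNCaP had 7 higher and 0 lower, LNCaP95 had 2 higher and 5 lower, and 22Rv1 had 4 higher and 1 lower, beside the same shares. HSPH1, a cytosolic exchange factor for HSP70, was higher in each line, at 0.73, 1.305 and 0.19. Of 7 genes of mitochondrial stress, 3, 0 and 0 were higher and 3, 2 and 2 lower, and LONP1 and OMA1, both proteases, were lower in each line.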

How the data were processed

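The authors aligned reads with HISAT2 2.1.0 and counted them over exons on the GRCh37 build, per the labels, which name Subread 2.0.3. The paper's methods describe reverse-stranded counting. The deposited table gives raw counts for 20268 genes, unnormalized, in 27 libraries, and the deposited gene length and coordinates were used for RPKM. In R 4.3.3 with edgeR 4.0.16, genes were tested in a line where each of its 9 libraries exceeded 2 CPM (11096 in LNCaP, 11143 in LNCaP95 and 11728 in 22Rv1), scaled by TMM and compared with edgeR's legacy quasi-likelihood test, 3 control against 6 knockdown libraries. Each hairpin was tested in a fit of 3 groups per line. Interactions and levels between lines came from a fit of all 27 libraries (10317 genes above 2 CPM in each). Adjusted p-values are Benjamini-Hochberg over all genes of a comparison, at 0.05. The biological coefficient of variation was 4.95%, 7.09% and 6.08% in LNCaP, LNCaP95 and 22Rv1.

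The members and lists were chosen with earlier results of these data known. Library values are printed for ATF4, DDIT3, XBP1 and HSPA5, for members called in 1 direction in all 3 lines, and per arm and line for the 2 largest rises and falls among called members whose knockdown libraries all lie on 1 side of the controls. CRELD2, MANF and DNAJC3 by library in LNCaP were added after their values were seen. DDIT4 is in a gene set the study drew from these libraries, so its fall in all 3 lines is not independent evidence. Scripts were tested on simulated counts. Alternatives were DESeq2 1.42.0, edgeR's later quasi-likelihood form, other size factors and filters, hairpins as groups, 1 hairpin alone, a replicate block and leaving out each library. Motifs were searched in RefSeq promoters of GRCh38.p14.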

Additional observations from a re-analysis of the deposited data

Results flagged for a closer look

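The effect of knockdown differed between lines by the interaction test for 15 members of the ATF4 arm and 5 of the ER chaperone arm between LNCaP95 and LNCaP, beside 50.9% of all genes, for 3 and 8 between 22Rv1 and LNCaP, beside 40.4%, and for 15 and 8 between 22Rv1 and LNCaP95, beside 53.7%. These counts are of 20 and 16 genes. With hairpins as groups the 5 became 9 and the 3 became 10. When a single library was left out the 3 ranged from 2 to 5. The 8 between 22Rv1 and LNCaP95 became 5 with a replicate block. LNCaP and 22Rv1 shared a medium and puromycin dose, and those of LNCaP95 differed, so in its differences line and culture conditions cannot be told apart.

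Some members were called in opposite directions in a pair of lines with a difference that also passed. In LNCaP95 minus LNCaP these were ATF3 (-1.62 log2), NUPR1 (-2.19), SESN2 (-1.13), ERN1 (-0.74), DNAJB9 (-1.04) and HERPUD1 (-0.87), all rising in LNCaP and falling in LNCaP95. In 22Rv1 minus LNCaP they were NUPR1 (-0.66), SDF2L1 (-0.64) and HERPUD1 (-0.44). In 22Rv1 minus LNCaP95 they were SESN2 (1.03), SDF2L1 (-0.62) and PDIA6 (-0.23). Some of these directions rest on 1 hairpin. With CPSF1 sh2 in LNCaP, HERPUD1 was at 0.035, SE 0.037, adjusted p = 0.424 and SDF2L1 at 0.07, SE 0.071, adjusted p = 0.39. With CPSF1 sh1, SESN2 in 22Rv1 was at 0.13, SE 0.076, adjusted p = 0.243 and PDIA6 in LNCaP95 at 0.08, SE 0.037, adjusted p = 0.0734. The 22Rv1 call of PDIA6 was lost with a replicate block (adjusted p = 0.0605) and without any single library but CPSF1 sh1 replicate 3. Its LNCaP95 call was lost with filterByExpr (0.103), with no filter (0.169) and without CTRL sh replicate 1 (0.072) or 3 (0.0764). The LNCaP calls of HERPUD1 and SDF2L1 were lost without any single CTRL sh or CPSF1 sh1 library.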

How the results depend on the processing

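The fall of the ATF4 arm in LNCaP95 kept 20 of 20 genes lower under each alternative run, and the LNCaP CPSF1 sh1 and hairpin-difference counts of the chaperone arm kept within 1.5 times of their values. Over the pooled comparisons, 1809 of 1920 fold changes of single members kept their direction and side of the threshold, 72 lost it, 39 gained it and 0 reversed, leaving aside fits of 1 hairpin. Those fits reversed HSP90B1 in LNCaP (0.223 with CPSF1 sh1 alone, -0.268 with CPSF1 sh2 alone), and with CPSF1 sh2 alone TRIB3 (0.145), HSPA5 (-0.182), CALR (-0.205), PDIA4 (-0.115) and PDIA6 (-0.104), none called in the pooled fit.

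In LNCaP the 5 chaperone genes higher became 3 with filterByExpr, 2 with no filter, 12 with hairpins as groups, and 15 and 2 in fits of only CPSF1 sh1 or only CPSF1 sh2. The 1 lower became 0 with DESeq2 and in the fit of only CPSF1 sh1, and 6 in that of only CPSF1 sh2. The 3 ATF4 arm genes higher became 5 with CPSF1 sh2 alone. In LNCaP95 the 4 chaperone genes higher became 2 with filterByExpr, with no filter and with CPSF1 sh1 alone. In 22Rv1 the 1 ATF4 arm gene higher became 2 with hairpins as groups and for CPSF1 sh2 by itself, and 0 for CPSF1 sh1 by itself, the 8 chaperone genes lower became 3 with CPSF1 sh1 alone, and the 0 higher became 1 with CPSF1 sh2 alone. DESeq2 gave 5 for the 10 chaperone genes called with CPSF1 sh1 in 22Rv1 and 0 for the 1 between hairpins. With 9 groups, interactions of the chaperone arm between LNCaP95 and LNCaP rose from 5 to 9 and of the ATF4 arm between 22Rv1 and LNCaP from 3 to 10, and among controls 1 gene of the ATF4 arm was lower in LNCaP95 than in LNCaP (0 before) and 2 chaperone genes lower in 22Rv1 than in LNCaP (1 before). The cause was not tested.

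Replicate numbers are shared between groups, but only 3, 3 and 1 of 9 same-number pairs in LNCaP, LNCaP95 and 22Rv1 had deviations correlated above 0.1. The median correlation of same-number pairs was 0.06, 0.03 and -0.004, against -0.02, -0.046 and -0.012 for other pairs. The own number gave the best correlation in 6, 5 and 4 cases. The numbers were not taken as pairs in the main fits. With a replicate block the LNCaP chaperone genes higher went from 5 to 3, the 22Rv1 ATF4 arm genes higher from 1 to 0 and the chaperone interactions between 22Rv1 and LNCaP95 from 8 to 5, with the LNCaP95 ATF4 arm at 20 lower. No other count moved by over 1.5 times.

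Leaving out 1 library at a time moved these counts. In LNCaP, chaperone genes higher (5) ranged from 2 to 8, moving by over 1.5 times without any library but CPSF1 sh2 replicate 1, and those lower (1) from 0 to 1, moving without CTRL sh replicates 2 and 3, CPSF1 sh1 replicate 1 or any CPSF1 sh2 library. In LNCaP95, chaperone genes higher (4) ranged from 2 to 4, moving without CTRL sh replicate 3 or CPSF1 sh2 replicate 2. In 22Rv1, ATF4 arm genes higher (1) ranged from 0 to 2, moving without CTRL sh replicates 2 and 3, CPSF1 sh1 replicate 3 or any CPSF1 sh2 library, and chaperone genes lower (8) from 5 to 8, moving without CTRL sh replicate 3. For CPSF1 sh1 in 22Rv1 the 10 chaperone genes called ranged from 3 to 9, moving without any CTRL sh library, CPSF1 sh1 replicate 2 or CPSF1 sh2 replicates 1 and 3, and the 1 between hairpins from 0 to 3, moving without CTRL sh replicate 2, CPSF1 sh1 replicates 1 and 2 or any CPSF1 sh2 library. Interactions of the ATF4 arm between 22Rv1 and LNCaP (3) ranged from 2 to 5, moving without LNCaP CPSF1 sh1 replicate 3 or LNCaP95 CPSF1 sh1 replicate 2, and of the chaperone arm between 22Rv1 and LNCaP95 (8) from 5 to 8, moving without LNCaP95 CTRL sh replicate 2, LNCaP95 CPSF1 sh2 replicate 2, 22Rv1 CTRL sh replicates 1 and 2 or 22Rv1 CPSF1 sh1 replicate 1. Small counts such as 1 of 16 therefore rest on single libraries.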
